A study of Homo sapiens with 51 samples.

Results

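The small nucleolar RNA host genes are named for the small nucleolar RNAs (snoRNAs) that most of them carry in introns. Every gene whose symbol was SNHG followed by a number was taken, together with GAS5 and ZFAS1, which are host genes under other names. This gave 30 of the 60664 genes counted. They were taken by symbol alone, under a rule set with earlier results of these data known. A filter on low counts was passed by 23 of the 30 in all 4 fits of a single set and fraction, 4 more (SNHG21, SNHG22, SNHG27 and SNHG31) passed in some of these, and SNHG14, SNHG18 and SNHG28 passed in none.

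The libraries were ribosomal-RNA-depleted, strand-specific RNA-seq of K562 cells, a human erythroid leukaemia line, split by detergent lysis and a sucrose cushion into a nuclear-labelled and a cytoplasmic-labelled fraction. In one set, CRISPR interference (CRISPRi, silencing of a promoter by a guide-directed repressor) was used with the guides sgCNOT1, sgDDX3 or sgNUP160, and sgGal4, directed at a yeast gene, was the control guide. In the other set the endogenous DDX3 was knocked down and the cells carried a lentiviral DDX3 transgene with the substitution G325E, R326H, R351W, R376C, R534S or T532M, no transgene (noTransgene), or the wild-type sequence (WT), and uninfected cells were a further control. Each genotype had 2 replicates per fraction apart from R376C, which is used here with 1 library per fraction, so that 50 libraries of 13 genotypes enter. The labels do not say whether replicates were separate cultures or whether the CRISPRi line was a single clone, so p-values measure the spread between these libraries, which may be technical.

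In most host genes the exons are spliced into a noncoding RNA and the snoRNA is released from the intron that is cut out. Box C/D snoRNAs guide ribose methylation of ribosomal RNA, box H/ACA snoRNAs guide the conversion of uridine to pseudouridine, and the related scaRNAs guide modification of spliceosomal RNAs. Many spliced host RNAs are known to be engaged by ribosomes on short reading frames and removed in the cytoplasm by nonsense-mediated decay, and several start in a pyrimidine tract of the kind found in messages for ribosomal proteins. CNOT1 is the scaffold of the CCR4-NOT deadenylase, DDX3 (gene DDX3X) is a DEAD-box RNA helicase that acts in translation initiation, and NUP160 is a scaffold subunit of the nuclear pore.

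Total gene counts were 3716156 to 21365002 per nuclear-labelled library and 2354961 to 10386022 per cytoplasmic-labelled library. The fraction names are the labels': MALAT1, an RNA retained in nuclei, stood at 1665 to 3549 CPM (counts scaled to a common library total) in nuclear-labelled and 20729 to 34091 CPM in cytoplasmic-labelled libraries. Reads in no gene, here and below as a share of uniquely mapped reads, were 5.14 to 10.5% in nuclear-labelled and 50.4 to 69.2% in cytoplasmic-labelled libraries. The content of the fractions thus runs against their labels for these RNAs in all 50 libraries, and every direction between fractions below is one between labels. The second nuclear-labelled R376C library stood apart on these measures and was left out. Each targeted gene was low in its own knockdown: CNOT1 was at 46.2 and 45.8 CPM in nuclear-labelled sgCNOT1 libraries, against 811 and 822 CPM with sgGal4, DDX3X at 39.8 and 42.6 CPM with sgDDX3, against 257 and 273 CPM, and NUP160 at 15.9 and 12.5 CPM with sgNUP160, against 149 and 152 CPM. In cells without transgene, DDX3X was at 147 and 146 CPM, against 381 and 373 CPM in WT and 263 and 281 CPM in uninfected cells. In bulk libraries, fewer cells that hold an RNA and less of that RNA per cell cannot be told apart.

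By the RefSeq annotation, GAS5 carries 11 snoRNAs, 10 of them box C/D, SNHG1 carries 8 box C/D snoRNAs, and SNHG12 and SNHG17 carry 4 snoRNAs each. SNHG3, SNHG4 and SNHG7 each carry 2 box H/ACA snoRNAs, ZFAS1 carries 3 of box C/D, and SNHG10, SNHG20, SNHG21 and SNHG22 each carry a scaRNA. SNHG27 and SNHG28, taken by their symbols, have none in this annotation. The snoRNA sequences below show what the introns hold (GRCh38, RNA strand, 5′ to 3′). SNORD27 overlaps an annotated exon of SNHG1, and the other 3 are among those with counts of their own that the results below use. Capitals mark the TGATGA of box C and the CTGA of box D, or the ACA near the 3′ end of the box H/ACA snoRNA.
SNORD27, inside SNHG1, chr11:62855012-62855083, minus strand: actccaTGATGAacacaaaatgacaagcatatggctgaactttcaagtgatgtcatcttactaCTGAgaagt
SNORD12C, inside ZFAS1, chr20:49278940-49279028, plus strand: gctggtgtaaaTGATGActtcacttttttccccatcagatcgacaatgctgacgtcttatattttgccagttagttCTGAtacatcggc
SNORD104, inside SNHG25, chr17:64146083-64146152, plus strand: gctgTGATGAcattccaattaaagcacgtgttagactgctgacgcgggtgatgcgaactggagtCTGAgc
SNORA73B, inside SNHG3, chr1:28508559-28508762, plus strand: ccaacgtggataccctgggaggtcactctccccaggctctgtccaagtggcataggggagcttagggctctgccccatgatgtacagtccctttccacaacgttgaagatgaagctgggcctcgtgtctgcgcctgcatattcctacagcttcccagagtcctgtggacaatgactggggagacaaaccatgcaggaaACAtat

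The starts of some host genes are shown next because several host RNAs are known to begin in a pyrimidine tract. Each window holds 60 bases, 30 on each side of the start annotated in RefSeq GRCh38.p14. Capitals mark a run of at least 5 C or T that begins with C within 5 bases of that start, searched on the RNA strand.
SNHG5, chr6:85678704-85678763, minus strand: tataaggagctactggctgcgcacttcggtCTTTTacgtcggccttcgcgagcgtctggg
ZFAS1, chr20:49278612-49278671, plus strand: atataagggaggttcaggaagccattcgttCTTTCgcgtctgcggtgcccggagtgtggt
SNHG12, chr1:28581844-28581903, minus strand: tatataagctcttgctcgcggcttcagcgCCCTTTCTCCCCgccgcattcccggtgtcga
SNHG4, chr5:139274071-139274130, plus strand: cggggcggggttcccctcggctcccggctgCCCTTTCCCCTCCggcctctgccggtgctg
SNHG32, chr6:31834886-31834945, plus strand: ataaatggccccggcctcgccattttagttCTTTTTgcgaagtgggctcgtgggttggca
SNHG19, chr16:2155329-2155388, minus strand: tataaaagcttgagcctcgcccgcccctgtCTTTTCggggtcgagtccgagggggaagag
GAS5, chr1:173869016-173869075, minus strand: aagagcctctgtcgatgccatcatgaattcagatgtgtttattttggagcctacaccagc
SNHG1, chr11:62855856-62855915, minus strand: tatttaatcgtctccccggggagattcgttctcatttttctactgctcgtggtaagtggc
The first 6 of these have such a run, and GAS5 and SNHG1 have none in this window at the annotated start. Of the 26 host genes matched in the promoter table, 12 (46.2%) had a run by this rule, against 18.1% of all 35116 promoters. No match says only that these letters are not at this annotated start. For GAS5 the start in GENCODE 29, chr1:173868882, lies outside the window shown. The same holds for ZFAS1 (chr20:49278178), SNHG12 (chr1:28583132) and SNHG32 (chr6:31834608), so their runs are at the RefSeq start alone.

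Per kilobase of annotated exon, SNHG29, host of SNORD49A, SNORD49B and SNORD65, was highest in nuclear-labelled control libraries, at a mean of 210 CPM per kb in sgGal4 cells. GAS5, known for rising in growth-arrested cells, followed at 99.1, SNHG16, host of the SNORD1 family, at 70.9, SNHG6 at 63.7 and SNHG1 at 56.3 CPM per kb. ZFAS1, which starts beside the promoter of ZNFX1 on the opposite strand, was at 18.4 CPM per kb. In cytoplasmic-labelled sgGal4 libraries GAS5 was highest at 69.2 CPM per kb, with SNHG19 at 56.5, SNHG29 at 52.6 and SNHG1 at 50.5 CPM per kb. Exon lengths include retained-intron isoforms, so these levels depend on the annotation. SNHG3, SNHG4 and SNHG20 share exon bases with RCC1, MATR3 and SEC14L1 on the same strand, and reads in the shared bases were not counted for either gene.

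Knockdown of CNOT1 addressed whether loss of the deadenylase scaffold moves these RNAs, and it lowered most of them in the nuclear-labelled fraction. There 21 of the 23 host genes tested fell (edgeR quasi-likelihood test, Benjamini-Hochberg adjusted p under 0.05), where 23.1% of all 14324 genes fell, and none rose. Their median log2 fold change was -1.36, against 0.01 over all genes. SNHG26 and SNHG9 did not pass. The summed level of all 30 genes was 1060 and 1108 CPM in sgCNOT1 libraries, against 2288 and 2230 CPM in sgGal4 libraries.

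SNHG1 moved most. It had 34.9 and 39.0 CPM in nuclear-labelled sgCNOT1 libraries, against 214 and 209 CPM with sgGal4. Both knockdown libraries lay far below both controls, and the log2 fold change was -2.59 ± 0.10 (SE, n = 2 each, adjusted p = 1.21e-18). SNHG5, host of SNORD50A and SNORD50B, had 1.69 and 1.80 CPM, against 7.06 and 6.73 CPM with sgGal4 (log2 fold change -2.07 ± 0.30, adjusted p = 1.23e-06). It is a low-level RNA in this fraction, and its groups did not overlap. SNHG32, host of SNORD48 and SNORD52, had 12.6 and 11.8 CPM, against 37.2 and 36.9 CPM with sgGal4 (-1.67 ± 0.15, adjusted p = 1.24e-10). SNHG15, host of SNORA9, had 11.8 and 9.10 CPM, against 29.6 and 32.0 CPM (-1.59 ± 0.16, adjusted p = 1.78e-09). GAS5 had 140 and 150 CPM, against 367 and 353 CPM with sgGal4, a log2 fold change of -1.38 ± 0.07. ZFAS1 had 14.9 and 15.9 CPM, against 44.5 and 37.9 CPM (-1.51 ± 0.14). For all of these the knockdown libraries lay below both control libraries. The smallest change among the 23 was that of SNHG16, with 284 and 301 CPM, against 383.8 and 376.5 CPM (-0.45 ± 0.07, adjusted p = 5.74e-06).

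In the cytoplasmic-labelled fraction of the same cells 9 of 26 host genes fell, where 9.01% of all 16091 genes fell, and none rose. The median was -0.45, against 0.01 over all genes, and all 9 also fell in the nuclear-labelled fraction. SNHG6, host of SNORD87, had 10.7 and 8.55 CPM with sgCNOT1, against 22.5 and 23.8 CPM with sgGal4 (-1.19 ± 0.23, adjusted p = 0.00191). SNHG1 had 98.6 and 81.4 CPM, against 191 and 188 CPM (-1.02 ± 0.16, adjusted p = 0.00052). The groups did not overlap for either gene. SNHG5 had 7.80 and 10.9 CPM, against 16.7 and 20.6 CPM (-0.97 ± 0.23), and GAS5 had 143 and 119 CPM, against 253 and 249 CPM (-0.89 ± 0.16). ZFAS1 had 19.1 and 19.6 CPM, against 33.2 and 29.8 CPM (-0.66 ± 0.19). SNHG3, SNHG4, SNHG15 and SNHG29 were the other members that fell. SNHG7, host of SNORA17A and SNORA17B, changed least, with 25.1 and 48.8 CPM, against 33.8 and 36.4 CPM, and its knockdown replicates lay on both sides of the controls. The sgCNOT1 replicates of this fraction were unlike each other, with 50.4 and 60.5% of reads in no gene and totals of 10386022 and 5611771 counts. The count of 9 was 6 to 13 when single libraries were left out. ZFAS1 and SNHG15 lost their calls without either sgGal4 library, SNHG29 without the first (adjusted p = 0.134) and SNHG5 without the second (0.0688).

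The change differed between the fractions for 7 of 26 host genes, all of them falling more in the nuclear-labelled fraction, where the share of all genes so called was 3.24%. The change of the nuclear-labelled over cytoplasmic-labelled ratio, tested as an interaction, was -1.58 ± 0.29 (log2, SE) for SNHG7 and -1.58 ± 0.21 for SNHG1. SNHG19 stood at -1.32, SNHG32 at -1.20, SNHG8 at -1.08, SNHG15 at -0.97 and ZFAS1 at -0.86, while SNHG16 stood at -0.03. This count rests on few libraries, and SNHG7 and SNHG1 alone kept their calls without any 1 of the 8: it was 2 without the second nuclear-labelled sgCNOT1 or the first cytoplasmic-labelled sgGal4 library, and 3 without the second cytoplasmic-labelled or the first nuclear-labelled sgGal4 library. Several library measures moved with the sgCNOT1 group. Reads in no gene were 5.14 and 5.19% in its nuclear-labelled libraries, against 7.17 and 6.81% with sgGal4, and summed erythroid markers were 1438 to 1565 CPM, against 1047 to 1104 CPM. Summed markers of other cell types were 35.3 to 37.6 CPM, against 23.1 to 27.6 CPM. Much of each such sum, here and below, came from a single gene. Over all nuclear-labelled libraries TFRC, among the erythroid markers, had a median of 679 CPM, and EPCAM, among the others, of 19.3 CPM. The part of these library measures in the result was not tested.

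**Figure D1:**
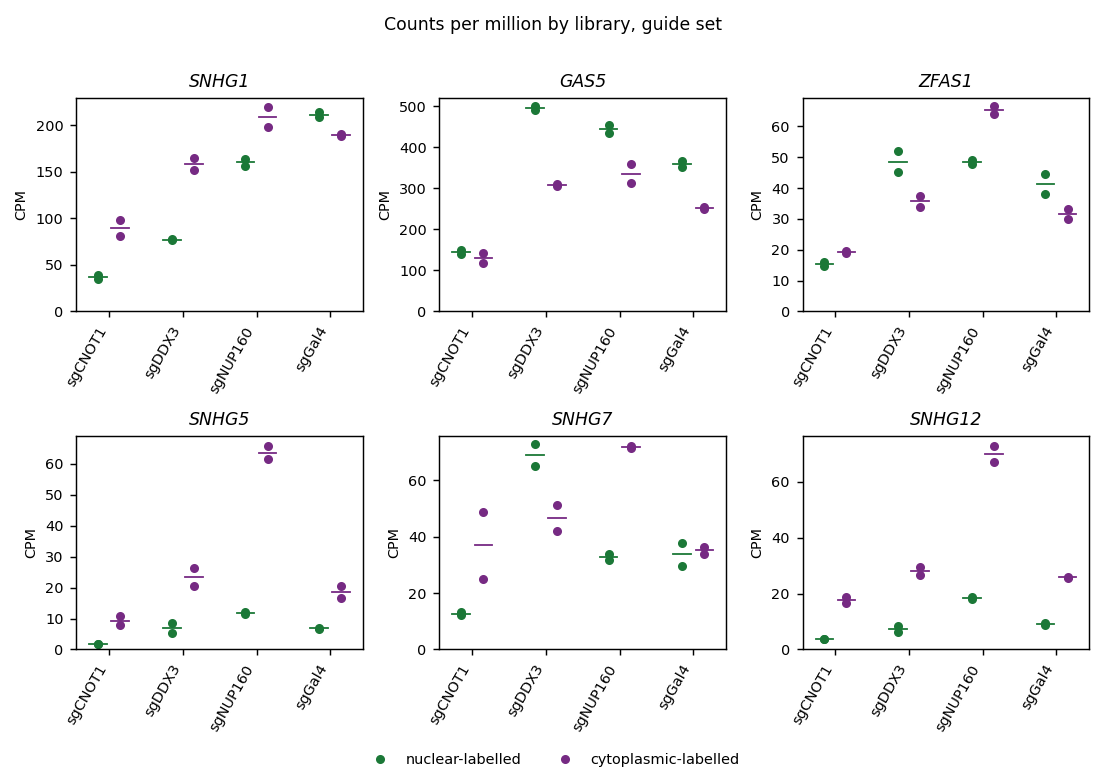
Level of host genes in each guide library, in CPM, with sgCNOT1, sgDDX3 and sgNUP160 left of sgGal4 and 1 point per library. In nuclear-labelled libraries SNHG1 lay at 34.9 and 39.0 CPM with sgCNOT1 and at 214 and 209 CPM with sgGal4.

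Knockdown of DDX3 left the cytoplasmic-labelled levels with 0 of 26 host genes called by edgeR's quasi-likelihood test, where 2.77% of all genes were called in either direction. DESeq2 also called 0, and 1 host gene had an unadjusted p under 0.05. GAS5 had 310 and 306 CPM with sgDDX3, against 253 and 249 CPM with sgGal4, and ZFAS1 had 37.5 and 34.0 CPM, against 33.2 and 29.8 CPM. SNHG8 changed least, with 19.2 and 29.4 CPM, against 24.6 and 22.3 CPM. In the nuclear-labelled fraction, where 16.4% of genes rose and 14.9% fell, 3 of 23 host genes rose and 1 fell. SNHG1 had 77.0 and 77.4 CPM with sgDDX3, against 214 and 209 CPM with sgGal4, a log2 fold change of -1.45 ± 0.10 (adjusted p = 1.31e-12). SNHG7 had 65.0 and 72.7 CPM, against 37.8 and 29.6 CPM (1.00 ± 0.14, adjusted p = 1.36e-06). GAS5 had 501 and 490 CPM, against 367 and 353 CPM (0.47 ± 0.07, adjusted p = 9.94e-06). SNHG1 thus fell and GAS5 rose in the same libraries, with no overlap between groups for either. SNHG29 rose by a smaller amount, with 955 and 939 CPM, against 790 and 790 CPM (0.27 ± 0.06, adjusted p = 0.00134), a call lost with unstranded counts (0.19, adjusted p = 0.0551). ZFAS1 had 51.9 and 45.1 CPM, against 44.5 and 37.9 CPM, and did not pass. SNHG6 changed least, with 76.2 and 82.6 CPM, against 73.9 and 85.0 CPM. SNHG1 was also the only host gene whose change differed between the fractions, at -1.10 ± 0.21 (adjusted p = 0.000963), where 0.0952% of all genes were called in that direction. In cytoplasmic-labelled libraries SNHG1 had 152 and 164 CPM with sgDDX3, against 191 and 188 CPM.

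Knockdown of NUP160 raised 5 of 26 host genes in the cytoplasmic-labelled fraction, where 7.05% of all genes rose, and none fell. SNHG5 had 61.5 and 65.8 CPM with sgNUP160, against 16.7 and 20.6 CPM with sgGal4, a log2 fold change of 1.60 ± 0.22 (adjusted p = 0.000584). SNHG12, host of SNORD99 and of 3 box H/ACA snoRNAs, had 67.3 and 73.0 CPM, against 25.7 and 26.0 CPM (1.26 ± 0.19, adjusted p = 0.000966). Both knockdown libraries exceeded both controls for each of these genes. SNHG30, host of SNORD7, had 34.1 and 27.2 CPM, against 15.8 and 13.1 CPM (0.91 ± 0.24, adjusted p = 0.0214). ZFAS1 had 64.0 and 66.7 CPM, against 33.2 and 29.8 CPM (0.87 ± 0.19), and SNHG7 had 71.4 and 72.2 CPM, against 33.8 and 36.4 CPM (0.86 ± 0.24). GAS5 had 360 and 312 CPM, against 253 and 249 CPM, and SNHG1 had 198 and 220 CPM, against 191 and 188 CPM, and neither passed. The change of SNHG25 was smallest, with 4.51 and 2.97 CPM, against 3.90 and 2.68 CPM. Leaving out any 1 of the 4 libraries of this comparison brought the 5 calls to 2: SNHG7, SNHG30 and ZFAS1 lost theirs each time, with adjusted p of 0.0691 to 0.233. Reads in no gene were 66.4 and 69.2% in cytoplasmic-labelled sgNUP160 libraries, against 51.9 and 55.4% with sgGal4, and the part of this difference in the result was not tested.

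In the nuclear-labelled fraction 5 of 23 host genes rose with sgNUP160, where 7.36% of all genes rose, and SNHG1 fell, as did 8.54% of all genes. SNHG10, host of SCARNA13, had 12.9 and 13.7 CPM with sgNUP160, against 6.51 and 6.46 CPM with sgGal4 (1.00 ± 0.23, adjusted p = 0.00285). SNHG12 had 18.8 and 18.1 CPM, against 9.62 and 8.88 CPM (0.96 ± 0.21), and SNHG17, host of the SNORA71 family, had 58.9 and 54.5 CPM, against 37.6 and 30.1 CPM (0.70 ± 0.14). Groups did not overlap for these genes. SNHG5 had 12.1 and 11.4 CPM, against 7.06 and 6.73 CPM (0.74 ± 0.25, adjusted p = 0.04). GAS5 had 453 and 435 CPM, against 367 and 353 CPM (0.28 ± 0.07, adjusted p = 0.00685), and ZFAS1 had 47.7 and 49.0 CPM, against 44.5 and 37.9 CPM, and did not pass. SNHG1 had 164 and 156 CPM, against 214 and 209 CPM (-0.42 ± 0.09, adjusted p = 0.00162), and SNHG29 at 801 and 796 CPM, against 790 and 790 CPM, changed least. SNHG12 and SNHG5 were higher in both fractions. The count of 6 became 3 without the first sgGal4 library, where SNHG1 and SNHG10 lost their calls (adjusted p = 0.0709 and 0.0685), and SNHG5 lost its call without any 1 of the 4 libraries. GAS5 lost its call without the second sgGal4 or the first sgNUP160 library (adjusted p = 0.123 and 0.116). Summed erythroid markers were 1567 to 1632 CPM in these sgNUP160 libraries, against 1047 to 1104 CPM with sgGal4, with 6 of 9 tested called higher, and the part of this in the result was not tested. For the ratio of the fractions edgeR called 0 of 26, where 3.66% of all genes were called, DESeq2 called 2, and 10 had an unadjusted p under 0.05. The 3 knockdowns share the sgGal4 libraries, so their changes are given side by side and not compared as independent results.

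**Figure D2:**
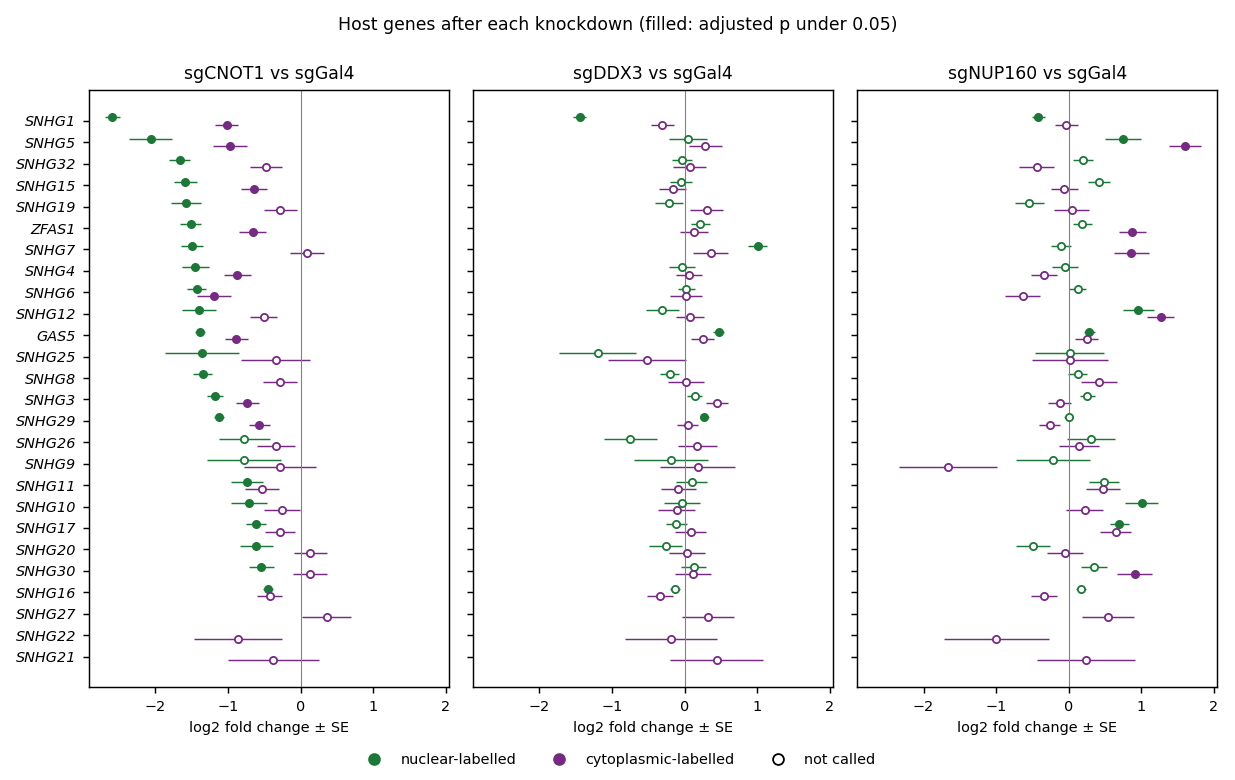
Log2 fold change of each host gene in sgCNOT1, sgDDX3 and sgNUP160 cells over sgGal4 cells, by labelled fraction, with marks for changes that passed an adjusted p under 0.05. The nuclear-labelled sgCNOT1 changes lie below 0 for all 23 host genes, and the largest is that of SNHG1 at -2.59.

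Other parts of the snoRNA pathway were set beside the host genes, with lists assembled with earlier results of these data known. Of 42 protein-coding host genes, mostly for ribosomal proteins and translation factors, 31 fell and 3 rose in nuclear-labelled sgCNOT1 libraries, where 23.1% of all genes fell and 26.5% rose, with a median log2 fold change of -0.61. RPSA, a small-subunit ribosomal protein gene, stood at -1.45 ± 0.06 and CCNB1IP1 at -1.20 ± 0.10. The noncoding host genes DANCR and EPB41L4A-AS1 both fell, each at -1.45. Of 17 genes for snoRNP proteins and their assembly, 6 fell and 1 rose: FBL, the ribose methylase of box C/D particles, stood at -0.94 ± 0.08, and NHP2, a box H/ACA core protein, at -0.87 ± 0.11. Of 14 nonsense-mediated decay factors, 7 fell and 2 rose, with UPF3B at -1.48 ± 0.18 and SMG8 at 0.69 ± 0.12. In cytoplasmic-labelled sgCNOT1 libraries 26 of the 42 coding hosts, both noncoding hosts, 7 snoRNP genes and 1 decay factor fell and none rose, where 9.01% of all genes fell.

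In nuclear-labelled sgDDX3 libraries 15 of the 42 coding hosts rose and 12 fell, while 12 of the 17 snoRNP genes fell and none rose, where 16.4% of all genes rose and 14.9% fell. The snoRNP genes included RUVBL2, an assembly helicase, at -0.83 ± 0.11 and GAR1, a box H/ACA core protein, at -0.73 ± 0.16. With sgNUP160, 12 coding hosts rose and 2 fell in the nuclear-labelled fraction, where 7.36% of all genes rose and 8.54% fell. In the cytoplasmic-labelled fraction 11 fell and none rose, where 8.13% of all genes fell. Of the 17 snoRNP genes 3 fell there and none rose, with a median of -0.24, and NOP10, another box H/ACA core protein, stood at -1.85 ± 0.42.

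The libraries also held counts for some of the snoRNAs. GENCODE 29 places 142 snoRNA and scaRNA genes inside host genes, with none in GAS5. Of these, 5 to 7 passed the filter in a fit of a single fraction and 7 or 9 in a fit of both. All of them lay outside host exons. Reads in bases shared with a host exon would not be counted, so snoRNAs inside exons could hardly pass. Mature snoRNAs are short and structured, so these counts may also hold reads from unspliced host RNA, which cannot be told apart here, and SNORA74A and SNORA74D, like the SNORA71 copies, are close relatives between which reads could be split. In nuclear-labelled sgCNOT1 libraries, where 23.1% of all genes fell, all 5 tested fell: SNORD104 inside SNHG25 stood at -2.48 ± 0.68, SNORA71B inside SNHG17 at -1.70 ± 0.54, SNORA74D inside SNHG4 at -1.63 ± 0.27, SNORA73B inside SNHG3 at -1.62 ± 0.28 and SNORA74A inside SNHG4 at -1.33 ± 0.29. In cytoplasmic-labelled sgCNOT1 libraries edgeR called 0 of 6, where 22.0% of all genes were called in either direction, and 0 had an unadjusted p under 0.05. With sgNUP160, SNORA74A rose in the nuclear-labelled fraction (1.29 ± 0.25) and SNORD104 in the cytoplasmic-labelled one (2.00 ± 0.54).

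How each host RNA was split between the fractions differed widely among members. In sgGal4 cells 20 of 26 differed between fractions, 9 of them higher and 11 lower in the nuclear-labelled one, where 65.0% of all genes differed, 29.7% higher and 35.4% lower. In uninfected cells 20 of 27 differed, again 9 higher and 11 lower, against 72.5% of all genes, 31.8% higher and 40.7% lower. SNHG21, SNHG22 and SNHG27 in the guide set and SNHG22 and SNHG31 in the transgene set passed the filter through cytoplasmic-labelled libraries alone, so their side was set by the filter. Of the members that passed in each fraction, 9 of 23 were higher and 8 lower in sgGal4 cells, and 9 of 25 higher and 10 lower in uninfected cells. With the size factors of DESeq2 in edgeR the split in uninfected cells was 7 higher and 15 lower. In sgGal4 cells SNHG29 stood at a log2 ratio between the labels, nuclear over cytoplasmic, of 2.38 ± 0.14 (SE), SNHG16 at 2.34 ± 0.15, SNHG6 at 2.16 ± 0.18 and SNHG8 at 1.51 ± 0.20. At the other end, SNHG17 stood at -1.35, SNHG26 at -1.34, SNHG4 at -1.13, SNHG12 at -1.06 and SNHG5 at -1.01. SNHG27 had 0 counts in both nuclear-labelled sgGal4 libraries and 103 counts (7.14 CPM) in the cytoplasmic-labelled ones, and was at least 34.8-fold lower in the nuclear-labelled fraction, from a floor of 3 counts over the group.

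These ratios depend on how the fractions are scaled: another size factor moved the median of all genes by -0.21 in uninfected and -0.11 in sgGal4 cells, so members were also set against the median of all genes in the same genotype. Relative to it, 5 of the 23 members that passed in each set and fraction (SNHG6, SNHG8, SNHG16, SNHG29 and SNHG30) lay above in every one of the 13 genotypes, 6 lay below in each, and 12 lay on both sides. GAS5 was among the 12. Its log2 ratio relative to the median was 1.33 with sgDDX3, 1.18 with sgNUP160, 0.69 with sgCNOT1 and 1.12 with sgGal4. In the transgene set it was -0.34 to 0.11 over the 6 mutants and 0.05 without transgene, against 0.74 in WT and 0.95 in uninfected cells. SNHG1 lay at -0.74 with sgCNOT1, -0.39 with sgDDX3 and 0.40 with sgNUP160, against 0.76 with sgGal4, and at -0.54 to -0.35 in the mutants, against 0.08 in WT and 0.64 in uninfected cells.

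**Figure D3:**
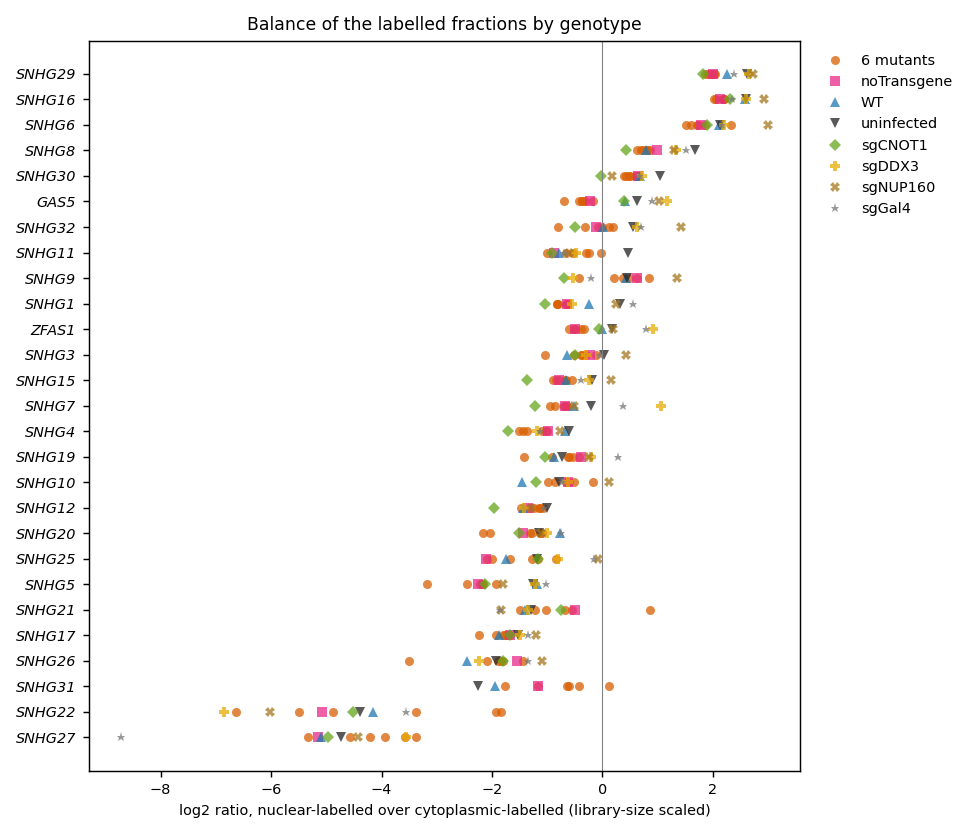
Log2 ratio of each host gene's nuclear-labelled to its cytoplasmic-labelled level (rows) in each of the 13 genotypes. SNHG29, SNHG16 and SNHG6 are positive in every genotype, while GAS5 is positive with sgGal4 (0.91) and negative in the 6 mutants (-0.18 to -0.69).

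In the transgene set, most host RNAs were higher in the cytoplasmic-labelled fraction of cells with sgDDX3 and no transgene than in that of uninfected cells: 17 of 27 rose, where 14.0% of all 17530 genes rose, and none fell. Their median was 0.63, against 0.00 over all genes. The DDX3 knockdown and the infection cannot be told apart in this comparison. SNHG12 had 101 and 117 CPM without transgene, against 30.6 and 31.7 CPM in uninfected cells, a log2 fold change of 1.91 ± 0.13 (adjusted p = 6.98e-14). SNHG4 had 216 and 182 CPM, against 77.1 and 77.5 CPM (1.47 ± 0.11, adjusted p = 2.2e-12). GAS5 had 494 and 498 CPM, against 252 and 263 CPM (1.05), ZFAS1 had 91.6 and 84.9 CPM, against 38.7 and 36.3 CPM (1.33), and SNHG1 had 243 and 214 CPM, against 186 and 176 CPM. None of these groups overlapped. The sgDDX3 comparison of the guide set, which has its own control libraries, had 0 such calls. The fit of the guide set had a wider spread between replicates and fewer libraries, 8 against 17. The counts of calls in these sets were therefore reached at unlike sensitivity. The median log2 fold change of host genes with sgDDX3 in the guide set was 0.07, against 0.63 here. In the guide set DDX3X was at 59.8 and 58.8 CPM in cytoplasmic-labelled knockdown libraries, against 257 and 233 CPM. Here it was at 138 and 122 CPM, against 289 and 290 CPM. The difference between the sets was not tested.

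Some host RNAs were also higher with the wild-type transgene. In WT cells 10 of 27 host genes were higher than in uninfected cells, where 4.54% of all genes were. SNHG3, host of SNORA73A and SNORA73B, had 273 and 270 CPM in WT, against 150 and 153 CPM in uninfected cells (0.88 ± 0.09, adjusted p = 2.56e-08), and SNHG12 had 61.8 and 49.8 CPM, against 30.6 and 31.7 CPM (0.87 ± 0.13, adjusted p = 4.57e-05). SNHG1 had 179 and 170 CPM in WT, against 186 and 176 CPM, and changed least (-0.02 ± 0.10). Leaving out any 1 of these 4 libraries brought the count of 10 to between 3 and 5. Between cells without transgene and WT cells 9 rose, where 4.20% of all genes rose, and SNHG26 fell, where 4.19% fell, a call lost without any 1 of the 4 libraries and with DESeq2. The largest rises were those of SNHG12 (1.04 ± 0.12, adjusted p = 1.22e-07) and SNHG4 (0.87 ± 0.11, adjusted p = 5.79e-07). GAS5 rose by 0.77 ± 0.08 and ZFAS1 by 0.83 ± 0.12. The 10 calls were 6 without the second WT library.

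Cells with each of the 6 substitutions had higher cytoplasmic-labelled levels of a recurring set of host RNAs than WT cells. Relative to WT, 9 host genes rose in G325E (background 2.21% of all genes), 7 in R326H (1.91%), 7 in R351W (2.20%), 4 in R376C (0.0970%), 8 in R534S (3.11%) and 8 in T532M (6.83%), and none fell in any. These 6 comparisons share the WT libraries and are not independent. In these libraries DDX3X was at 433 and 402 CPM in G325E, 366 and 379 in R326H and 212 and 236 in R351W. It was at 428 CPM in R376C, 314 and 334 in R534S and 400 and 386 in T532M, against 314 and 317 in WT. The part of the DDX3X level in the results was not tested. GAS5, ZFAS1, SNHG4 and SNHG5 rose in all 6. GAS5 lay at 441 to 506 CPM (median 469) over the 11 mutant libraries, against 315 and 294 CPM in WT, with log2 fold changes of 0.49 to 0.68. SNHG5 lay at 47.2 to 73.5 CPM (median 57.1), against 34.2 and 29.3 CPM (0.66 to 1.18). ZFAS1 lay at 75.3 to 86.8 CPM (median 82.6), against 55.1 and 49.1 CPM (0.61 to 0.68). Every mutant library exceeded both WT libraries for these genes. Some of these calls rest on 1 library: without the second WT library ZFAS1 lost its call in G325E, R326H and R376C (adjusted p = 0.0530, 0.0503 and 0.163), GAS5 and SNHG4 in R376C (0.115 and 0.0674) and SNHG5 in R534S (0.101). SNHG4 lay at 163 to 211 CPM (median 186), against 116 and 111 CPM (0.62 to 0.83), and SNHG12, called in 5 of 6, at 77.9 to 105 CPM (median 94.3), against 61.8 and 49.8 CPM. SNHG1, also called in 5, lay at 229 to 267 CPM (median 252), against 179 and 170 CPM. Its calls in R351W (adjusted p = 0.0504) and R534S (0.0797) were lost without the second WT library, and that in R534S also without its own second library (0.0673).

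In R376C, with 1 library in this fraction, only 17 genes of the whole table rose by edgeR's test, and SNHG5, ZFAS1, SNHG4 and GAS5 were 4 of them. Their log2 fold changes there were 1.18 ± 0.17, 0.68 ± 0.15, 0.67 ± 0.13 and 0.49 ± 0.10. With 1 library the spread is taken from the other genotypes, and the 4 calls became 1 without the second WT library. The 8 calls in R534S became 4 without its second library or the second WT library. Among the 6 mutants themselves the test with edgeR found 0 of 27 host genes different in this fraction, where 4.85% of all genes were, and 1 had an unadjusted p under 0.05.

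**Figure D4:**
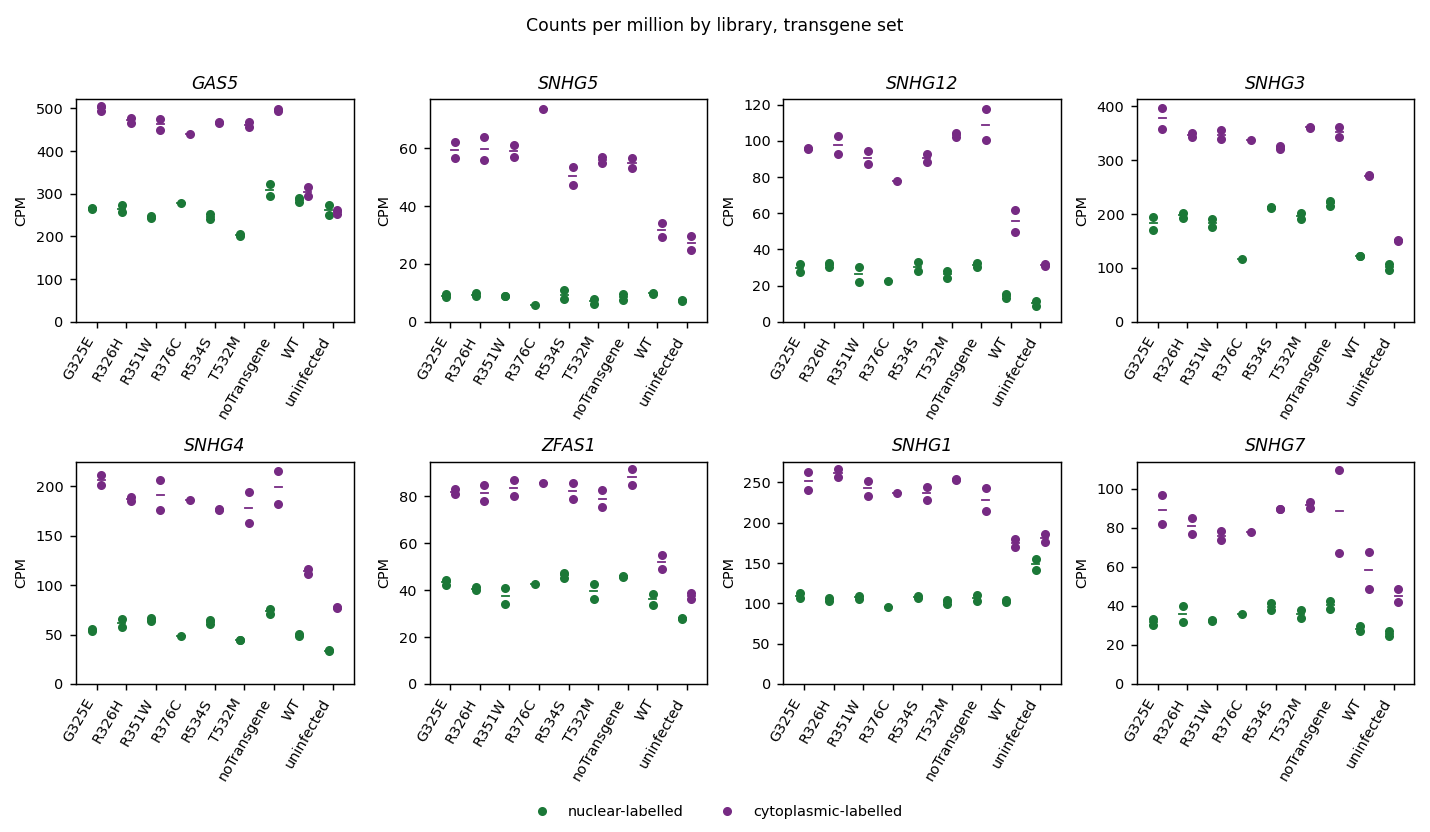
Level of host genes in each library of the transgene set, in CPM, with the 6 mutants and noTransgene left of WT and uninfected cells and 1 point per library. In cytoplasmic-labelled libraries GAS5 lies at 441 to 506 CPM in the mutants, at 315 and 294 CPM in WT and at 252 and 263 CPM in uninfected cells.

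In the nuclear-labelled fraction 25 host genes were tested in each mutant. Over WT, with R376C and its 1 library left for later, 4 rose in G325E, 4 in R326H, 5 in R351W, 8 in R534S and 4 in T532M. In the same order 2, 1, 1, 1 and 4 fell, and GAS5 rose in none of the 6 mutants. SNHG12 rose over WT in all 6 mutants (log2 fold changes 0.65 to 1.13), SNHG3 in 5, SNHG19 in 4, and SNHG4, SNHG7 and SNHG17 in 3 each. SNHG12 in R376C lost its call without either WT library and with DESeq2 (adjusted p = 0.0717), and SNHG19 lost its call in each of its 4 mutants without the first WT library (0.176 to 0.565). The share of all genes that rose in this fraction was 8.62% in G325E, 9.03% in R326H, 7.51% in R351W, 1.12% in R376C, 10.2% in R534S and 17.5% in T532M, and the share that fell was 8.65%, 8.65%, 7.52%, 1.63%, 10.2% and 17.7% in the same mutants. In T532M 16% of the host genes tested rose and 16% fell, near its shares of all genes. SNHG12 lay at 22.2 to 33.0 CPM (median 28.1) over the 11 mutant libraries, against 13.2 and 15.4 CPM in WT. SNHG3 lay at 117 to 214 CPM (median 193), against 123 and 122 CPM. The SNHG12 groups did not overlap, and the SNHG3 groups overlapped through R376C. GAS5, SNHG16 and SNHG20 each fell in 3 mutants, and the 3 SNHG16 calls were lost with unstranded counts. GAS5 lay at 201 to 279 CPM (median 253), against 290 and 281 CPM in WT, and fell in R351W (-0.19), R534S (-0.18) and T532M (-0.38). The first 2 of these calls were lost without the first WT library or the first library of that mutant. SNHG20, host of SCARNA16, lay at 3.51 to 8.05 CPM, against 9.64 and 10.7 CPM, with its largest fall in T532M (-1.20 ± 0.26, adjusted p = 0.000129). In T532M over WT in this fraction 5 of 9 erythroid markers tested were called higher and 3 lower, with sums of 1201 to 1253 CPM, against 1335 to 1359 CPM, and markers of other cell types summed to 19.1 to 21.7 CPM, against 34.0 to 34.5 CPM. Their part in the T532M results was not tested. The SNHG20 call in G325E was lost with DESeq2 (adjusted p = 0.0717), without the first G325E library (0.386) and without the second WT library (0.16), and that in R376C without the second WT library. SNHG32 fell in R376C, with 16.8 CPM in its library, against 28.7 and 27.7 CPM in WT (-0.73 ± 0.19, adjusted p = 0.0199), a call lost without either WT library. The 3 calls of R376C in this fraction became 1 without the first and 0 without the second WT library, and the 5 of R326H became 3 without its second or the second WT library. Among the 6 mutants 6 of 25 host genes differed in this fraction (GAS5, SNHG3, SNHG4, SNHG15, SNHG17 and SNHG32), where 26.5% of all genes did.

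Without transgene, 8 host genes were higher and 2 lower than in uninfected cells in this fraction (19.7% and 19.3% of all genes), and 9 were higher than in WT cells (9.23%). SNHG12 had 30.2 and 32.5 CPM without transgene, against 13.2 and 15.4 CPM in WT and 8.88 and 11.6 CPM in uninfected cells. The changes were 1.17 ± 0.14 over WT and 1.51 ± 0.16 over uninfected cells. SNHG3 had 225 and 214 CPM, against 123 and 122 CPM in WT (0.89 ± 0.07) and 95.9 and 107 CPM in uninfected cells. SNHG4 had 76.3 and 70.6 CPM, against 32.9 and 33.9 CPM in uninfected cells (1.04 ± 0.09, adjusted p = 1.52e-15). SNHG1 lay at 95.5 to 113 CPM over the mutants, 102 and 110 CPM without transgene and 105 and 102 CPM in WT, against 155 and 142 CPM in uninfected cells. Its log2 fold change in WT over uninfected cells was -0.67 ± 0.07 (adjusted p = 2.26e-12). In that comparison SNHG1, SNHG6 and SNHG11 fell and SNHG4 rose, where 10.3% of all genes fell and 10.9% rose. The call of SNHG11 was lost with DESeq2 (adjusted p = 0.116), with no filter (0.0626) and without the second WT or the second uninfected library (0.334 and 0.393). Reads in no gene were 9.71 and 9.67% in nuclear-labelled libraries without transgene, 9.60 and 8.67% in WT and 7.94 and 7.65% in uninfected cells. Summed erythroid markers were 1325 to 1350 CPM without transgene and 1335 to 1359 CPM in WT, against 1068 to 1088 CPM in uninfected cells, and the part of these measures in the results was not tested. The count over WT was 5 without the first WT library.

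**Figure D5:**
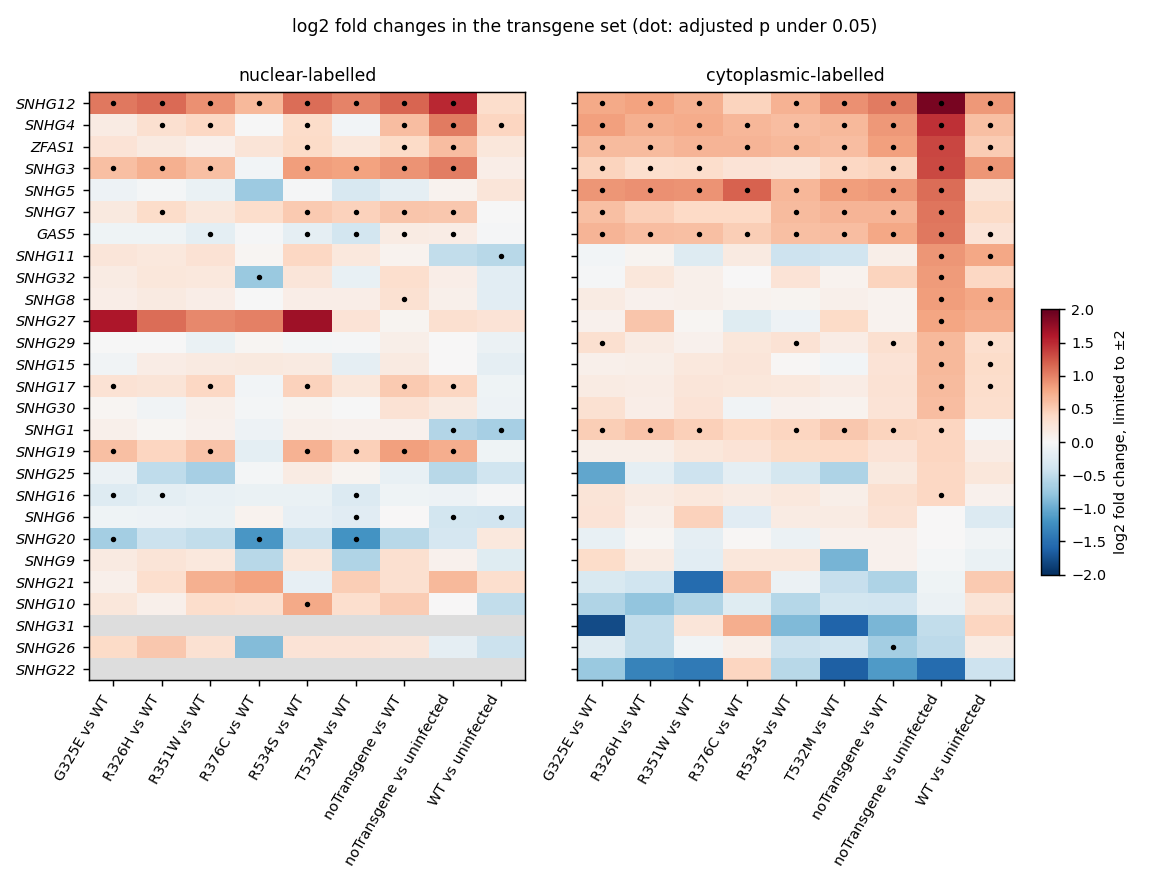
Log2 fold change of each host gene over WT cells in the 6 mutants and noTransgene, and over uninfected cells in noTransgene and WT, by labelled fraction. Marks show changes that passed an adjusted p under 0.05. In the cytoplasmic-labelled panel GAS5, ZFAS1, SNHG4 and SNHG5 pass in every column over WT, and in the nuclear-labelled panel SNHG12 does.

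GAS5, higher over WT in the cytoplasmic-labelled fraction and not in the nuclear-labelled one, had a lower ratio of the fractions in all 6 mutants. The interaction was -0.80 in G325E, -0.74 in R326H, -0.79 in R351W, -0.59 in R376C, -0.84 in R534S and -1.10 in T532M, with standard errors of 0.11 to 0.13. The share of all genes called lower was 0.580%, 0.648%, 0.380%, 0.100%, 2.06% and 5.25% in the same order of mutants. Without transgene 4 host genes were lower and 1 higher relative to WT, where 2.21% and 0.438% of all genes were, with GAS5 at -0.65 ± 0.11. Relative to uninfected cells 10 were lower without transgene, where 5.22% of all genes were, and 5 in WT, where 2.29% were. SNHG5 was lower in 5 of the 6, at -1.0, -0.99, -1.03, -1.99 and -1.26 in G325E, R326H, R351W, R376C and T532M. In R534S SNHG3 and SNHG10 were higher, at 0.53 and 1.28, where 0.501% of all genes were. The GAS5 calls held without any 1 library in every mutant other than R376C, where 3 of the 4 WT libraries each decided it. Those of SNHG5 in G325E, R326H and R351W were lost without the second WT library of either fraction, among others (adjusted p up to 0.148). The count without transgene over WT became 1 to 3 without any 1 WT library or either nuclear-labelled library without transgene, and that of G325E became 2 without the second WT library of either fraction. The 4 calls of R534S became 2 without either of its cytoplasmic-labelled libraries, its first nuclear-labelled one, the first cytoplasmic-labelled or the second nuclear-labelled WT library. SNHG10 lost its call there with unstranded counts (adjusted p = 0.0932) and without any of 6 single libraries, where it stood at 0.92 to 1.41 (adjusted p up to 0.298). These ratio contrasts in the transgene set were added after the data had been seen.

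Of the 42 protein-coding hosts, 1 to 9 were called higher over WT in the cytoplasmic-labelled libraries of a mutant and none lower, where 0.0970 to 6.83% of all genes rose. HSPA8, a chaperone gene that hosts box C/D snoRNAs, rose over WT in cells without transgene by 1.29 ± 0.10. Over uninfected cells 21 of the 42 were higher and 1 lower without transgene, where 14.0% and 11.8% of all genes were. In nuclear-labelled libraries 10 of the 42 were higher and 25 lower in the same comparison, where 19.7% and 19.3% of all genes were, with CCNB1IP1 at -0.93 ± 0.08 and HSPA8 at 0.85 ± 0.05. Of the 17 snoRNP genes, 5 were higher over WT without transgene in the cytoplasmic-labelled fraction and none lower, where 4.20% of all genes were higher, among them GAR1 at 0.81 ± 0.19, NAF1 at 0.55 ± 0.16 and NOP56 at 0.53 ± 0.09. NAF1 is an assembly factor of box H/ACA particles, and NOP56 is a core box C/D protein that is itself a coding host.

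The snoRNA counts did not always move with their hosts. Without transgene all 7 snoRNAs tested in the cytoplasmic-labelled fraction were higher than in uninfected cells, where 14.0% of all genes were, from SNORA71B (0.94 ± 0.20) to SNORD99 inside SNHG12 (1.82 ± 0.51). In that list SNORD12C inside ZFAS1 stood at 1.78 ± 0.35 and SNORA74A at 1.67 ± 0.18. Relative to WT, SNORA73B fell in G325E (-0.63 ± 0.13), R326H (-0.82 ± 0.13) and R351W (-0.81 ± 0.13), and SNORA74D fell in these 3 (-0.76, -0.92 and -1.20) and in T532M (-1.47 ± 0.16). The share of all genes that fell was 3.94% in G325E, 3.32% in R326H, 3.46% in R351W and 7.88% in T532M. SNHG4, which holds SNORA74D, rose in the same libraries. In the nuclear-labelled fraction SNORA73B rose over WT in 5 of the 6 mutants, by 0.74 to 1.72, where 7.51 to 17.5% of all genes rose.

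The 12 host genes with a pyrimidine run at the annotated start were set beside the others as a description. In nuclear-labelled sgCNOT1 libraries 10 of 10 tested genes with a run fell, with a median of -1.47, and 8 of 9 without one fell, with a median of -0.78, where 23.1% of all genes fell. In cytoplasmic-labelled sgCNOT1 libraries both medians were -0.45. In cytoplasmic-labelled libraries without transgene, relative to uninfected cells, 9 of 11 genes with a run rose, with a median of 0.85, and 7 of 12 without one, with a median of 0.53, where 14.0% of all genes rose. SNHG1 and GAS5, shown above without a run at this start, were among the genes that fell with sgCNOT1.

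Over the 50 libraries, with log2 CPM centred within each set and fraction, the genes most like GAS5 among 13084 were SNHG29 (Pearson r = 0.927), RPS19, a ribosomal protein gene (0.894), and ZFAS1 (0.885). These libraries share cell line, depth differences and the knockdowns themselves, and the values are a description. Of the markers of the line, HBE1, an embryonic globin gene, was at 0 CPM in every library. Of the markers of other cell types, the keratin gene KRT5 was at 0 CPM in every library.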

How the data were processed

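RNA of 51 libraries was counted per gene by the authors with STAR 2.7.5a on GRCh38, per the submitters' processing notes. Which gene models they used is not stated in these sources. The deposited files hold raw counts per gene with an unstranded column and 2 stranded ones, and the last column (column 4) was used because the kit was directional per the labels' protocols. It held more gene counts than the opposite strand. Summary lines for reads in no gene stayed out of all totals. The 60664 gene identifiers were matched to symbols through a name table and GENCODE 29 (60652 matched in either), and snoRNA cargo and promoters were taken from RefSeq. CPM here is the count scaled by the library's total in genes alone.

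Counts were tested with edgeR 4.0.16 (R 4.3.3, limma 3.58.1): TMM scaling, its default filter on low counts, a robust quasi-likelihood fit with a coefficient per genotype, and Benjamini-Hochberg adjustment over all genes tested, with calls at 0.05. Each set was fitted in each fraction alone, and in both fractions together for ratios. A standard error is the log2 fold change over the root of its F statistic. The steps were tested on simulated counts. Alternatives were DESeq2 1.42.0, its size factors in edgeR, no filter, unstranded counts, the replicate number as a block, and leaving out each library. Replicates differed by more than counting noise, and most in the cytoplasmic-labelled sgCNOT1 pair (chi-square per degree of freedom 27.6). The second nuclear-labelled R376C library was left out, and R376C has a single cytoplasmic-labelled library among the 51.

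The members, gene lists and tests were chosen with earlier results of these data known. Values per library are given for GAS5, ZFAS1 and SNHG1 and for the 4 called members with the largest change in each guide comparison and the member with the smallest, and, mostly as ranges over the mutants, for the 2 largest in each transgene comparison. Up to 3 called genes with the largest change are named per other list. Further members were named after their values were seen.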

Additional observations from a re-analysis of the deposited data

Results flagged for a closer look

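The results here are changes of the nuclear-labelled to cytoplasmic-labelled ratio that passed the interaction test (edgeR's quasi-likelihood test, adjusted p under 0.05), so that a host gene's change differed between the fractions. All values are log2, and a negative one means a lower ratio in the group named first. With sgDDX3 over sgGal4, SNHG1 stood at -1.10. With sgCNOT1 over sgGal4, SNHG7 and SNHG1 both stood at -1.58, SNHG19 at -1.32, SNHG32 at -1.20, SNHG8 at -1.08, SNHG15 at -0.97 and ZFAS1 at -0.86. The SNHG7 and SNHG1 calls were kept without any 1 library and the other 5 were not, and that of ZFAS1 was also lost with no filter (adjusted p = 0.225) and unstranded counts (0.163).

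Without transgene over uninfected cells, SNHG11 stood at -1.33, SNHG5 at -1.0, SNHG1 at -0.97, GAS5 at -0.86, SNHG8 at -0.70, SNHG32 and ZFAS1 both at -0.67, SNHG29 at -0.61, SNHG15 at -0.60 and SNHG16 at -0.47. The calls of SNHG5 (adjusted p = 0.0646), SNHG8, SNHG15, SNHG16 and SNHG32 were lost without at least 1 library. Over WT cells the same cells had SNHG5 at -1.08, GAS5 at -0.65, SNHG16 at -0.45, SNHG1 at -0.41 and, in the other direction, SNHG3 at 0.41. The SNHG1 call there was lost with the replicate block (adjusted p = 0.0569), the size factors of DESeq2 (0.0592) and no filter (0.102), and without any of 7 single libraries (0.0764 to 0.247). GAS5 alone of these kept its call without any 1 library, and SNHG5 lost its call without the second cytoplasmic-labelled WT library (0.0531) or the first nuclear-labelled one without transgene (0.0893). In WT over uninfected cells, SNHG11 stood at -1.24, SNHG8 at -0.88, SNHG3 at -0.67, SNHG1 at -0.57 and SNHG29 at -0.37, of which only the SNHG29 call was lost without single libraries (adjusted p = 0.0611 to 0.0831).

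In the mutants over WT, which share the WT libraries, GAS5 stood at -0.80 in G325E, -0.74 in R326H, -0.79 in R351W, -0.59 in R376C, -0.84 in R534S and -1.10 in T532M. SNHG5 stood at -1.0 in G325E, -0.99 in R326H, -1.03 in R351W, -1.99 in R376C and -1.26 in T532M. SNHG4 stood at -0.69 in G325E, -0.76 in R376C and -0.82 in T532M, SNHG16 at -0.55 in G325E and -0.51 in T532M, and SNHG1 at -0.56 in R326H and -0.57 in T532M. SNHG20 stood at -1.40 in T532M and SNHG29 at -0.38 in R534S. The other changes in R534S were higher ratios, SNHG3 at 0.53 and SNHG10 at 1.28, and the call of SNHG10 was lost with unstranded counts (adjusted p = 0.0932) and without any of 6 single libraries. R376C rests on 1 library per fraction, and its SNHG4 call was lost with the size factors of DESeq2 (0.0941) and without any 1 WT library (0.0647 to 0.161). SNHG16 in G325E and SNHG29 in R534S also lost their calls without single libraries and with unstranded counts, and SNHG16 in T532M lost its call with unstranded counts alone (0.127).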

How the results depend on the processing

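No called change of a host gene reversed its direction under an alternative, host genes that did not pass were not tried, and the counts of members called below changed by over 1.5 times under some; the cause was not tested. With DESeq2 the ratio of the fractions gave 12 calls with sgCNOT1 (edgeR 7), 2 with sgNUP160 (edgeR 0) and 5 in R351W (edgeR 2), and R376C gave 1 in nuclear-labelled libraries (edgeR 3). With no filter the ratio gave 4 calls with sgCNOT1 and, without transgene over WT, 3 (5 with the filter), and unstranded counts also gave 3 there. Size factors of DESeq2 in edgeR gave 1 ratio call in R376C (TMM 3), where GAS5 had an adjusted p of 0.0742. Leaving out 1 library at a time gave, for the ratio, 2 to 10 calls with sgCNOT1, 1 to 7 without transgene over WT, 2 to 4 in G325E, 1 to 2 in R351W, 1 to 2 in R376C and 2 to 4 in R534S. In cytoplasmic-labelled libraries it gave 2 with sgNUP160, 3 to 5 in WT over uninfected cells, 6 to 11 without transgene over WT, 1 to 4 in R376C and 4 to 7 in R534S. In nuclear-labelled libraries it gave 3 to 5 with sgNUP160, 5 to 8 without transgene over WT, 3 to 5 in R326H and 0 to 1 in R376C. The 21 nuclear-labelled calls with sgCNOT1 were 15 without the first sgGal4 library and 18 with DESeq2.

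Of 281 called host gene results, 179 kept their call without any 1 library and 102 lost it without at least 1. Of the 138 chosen by the naming rule, calls were lost in 6 of 131 with DESeq2, 4 with its size factors, 5 with no filter and 6 with unstranded counts. ZFAS1 lost its call in cytoplasmic-labelled sgNUP160 libraries with unstranded counts (adjusted p = 0.104), and SNHG1 lost its call between the fractions of uninfected cells with the size factors of DESeq2 (adjusted p = 0.209).

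The replicate numbers are shared by label only, and with 2 pairs per comparison the correlation of replicate differences ran from -0.54 to 0.39. With the replicate block the calls in cytoplasmic-labelled libraries were 10 with sgCNOT1, 6 with sgNUP160 and 17 without transgene over uninfected cells, the ratio gave 8 with sgCNOT1, and 3 of the 138 calls were lost: SNHG1 in the ratio without transgene over WT (adjusted p = 0.0569) and GAS5 in nuclear-labelled libraries without transgene over WT (0.053) and over uninfected cells (0.0546). Limits are 2 libraries per group, totals of at most 10386022 counts in cytoplasmic-labelled libraries, and low levels of SNHG5, SNHG10 and SNHG25 in the nuclear-labelled fraction.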

Other observations

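Of the 23 host genes that passed in each set and fraction, 21 had a CPM in the left-out nuclear-labelled R376C library that was nearer the cytoplasmic-labelled R376C library than the other nuclear-labelled one, and SNHG8 and SNHG30 did not. GAS5 was at 425 CPM in it, against 279 CPM in the first nuclear-labelled and 441 CPM in the cytoplasmic-labelled library. SNHG1 was at 243 CPM, against 95.5 and 237 CPM in the same order, and SNHG5 at 58.2 CPM, against 5.83 and 73.5 CPM. SNHG6 was at 26.7 CPM, against 75.8 and 21.2 CPM. Reads in no gene were 62.8% of the uniquely mapped reads of the left-out library.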
